A study of Mus musculus with 6 samples.

Results

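Genes of proteins that bind specific sequences in the 3' untranslated regions (UTRs) of mRNAs were examined in mouse oocytes with a Nat10 knockout. Nat10 encodes the enzyme that acetylates cytidine in RNA, and its protein was not measured. The set holds 9 genes, taken by symbol from the 55291 genes of the deposited table: Dazl, Pum2, Msi1, Msi2, Zfp36l1, Zfp36l2, Marf1, Mex3b and Mex3c. Pools of 10 fully grown oocytes were profiled by Smart-seq2, 3 of them from mature wild type (WT) mice and 3 from mature mice with a Gdf9-cre Nat10 conditional knockout (Nat10 cKO). All females had received PMSG, a gonadotropin that stimulates follicle growth, and the labels give collection at 32 to 48 h or at 36 to 48 h after it. Gdf9-cre acts in oocytes from early follicle stages, so cells around the oocyte keep Nat10. The labels do not give the strain, the age in weeks or the deleted exons, whether WT females carried floxed Nat10 or the Cre, or whether each pool came from a different female. All p-values therefore measure the spread between these pools.

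A growing oocyte stores mRNAs that it will use after its own transcription has stopped. Proteins bound to the 3' UTR decide when such an mRNA is translated and when it is destroyed, mostly by acting on its poly(A) tail. Some of the 9 proteins repress their targets, some activate them, and some bring in or carry a nuclease.

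The letters that these proteins read are short, and the windows below show matches in some of the mRNAs named in the results, called or not. Other matches are not printed, and letters read by Musashi proteins were not searched. Pumilio proteins read TGTANATA, ZFP36 family proteins read the AU-rich TATTTAT, and DAZL reads U-rich letters around a G, searched here as TTTGTTT. Matches were sought on the sense strand of 1 GENCODE M21 coding transcript per gene, and matches of different motifs were counted separately and may overlap. In each window of 30 bases, written 5′ to 3′ as DNA from GRCm38, the capitals mark the match.
Msi2, Pumilio letters, chr11:88344447-88344476, minus strand: gcttttaaacgTGTATATAatccatgattt
Pum2, Pumilio letters, chr12:8750154-8750183, plus strand: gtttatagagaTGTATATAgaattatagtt
Pum2, Pumilio letters, chr12:8750407-8750436, plus strand: atgtacagaatTGTATATActtataattgt
Ccnb1, Pumilio letters, chr13:100779610-100779639, minus strand: catgtgccgccTGTACATAggatacctacc
Ccnb1, Pumilio letters, chr13:100779437-100779466, minus strand: gatccaactaaTGTATATAtctgtagccta
Cdkn1b, Pumilio letters, chr6:134924472-134924501, plus strand: tgtactacctgTGTATATAgtttttatctt
Cdkn1b, Pumilio letters, chr6:134925226-134925255, plus strand: aagtgtgcctgTGTATATAactctgtaaag
Dazl, AU-rich letters, chr17:50280786-50280815, minus strand: attgtactttaTATTTATtatttgtctaaa
Dazl, AU-rich letters, chr17:50280577-50280606, minus strand: tacatatatccTATTTATttggttgggatg
Zfp36l2, AU-rich letters, chr17:84184913-84184942, minus strand: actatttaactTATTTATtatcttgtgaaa
Zfp36l2, AU-rich letters, chr17:84184865-84184894, minus strand: tgtccatactgTATTTATcgagtatgatga
Zfp36l2, AU-rich letters, chr17:84184679-84184708, minus strand: attgtatgtaaTATTTATttcattaatttc
Sycp3, DAZL letters, chr10:88473166-88473195, plus strand: agggtttTTTGTTTGTTTGTTTtaatagtt
Ddx4, DAZL letters, chr13:112598570-112598599, minus strand: tgtgatgtgctTTTGTTTaattattgggtc

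Several of the regulators' own mRNAs thus hold letters that the set reads. Pum2 holds 2 Pumilio matches in a 3' UTR of 2861 nucleotides, and Msi2 holds 1 in 803 nucleotides. Zfp36l1 and Zfp36l2 each hold 3 AU-rich matches, and Dazl holds 2. Marf1 holds 9 matches of the DAZL letters and Msi2 holds 5. Such matches are common. Among 13631 tested genes with an annotated 3' UTR, 23.8% held the Pumilio letters, 27.0% the AU-rich letters and 36.8% the DAZL letters. These shares are of genes with at least 1 match, so they do not show how common several matches are. Dazl, Zfp36l1, Zfp36l2, Marf1 and Mex3b hold 0 Pumilio matches. Marf1, Mex3b and Msi2 hold 0 AU-rich matches, and Zfp36l1 holds 0 of the DAZL letters. Mex3c was not among the genes searched, so its matches are not known here. Longer 3' UTRs hold them more often. Among genes with a 3' UTR of similar length, the Pumilio letters were held by 17.3% for Msi2, 45.3% for Pum2, 22.2% for Ccnb1 and 50.0% for Cdkn1b. The AU-rich letters were held by 38.5% for Dazl and 38.1% for Zfp36l2. No such share was taken for the DAZL letters of Marf1 and Msi2. Other isoforms of these genes can hold other matches, and a match is not a measured binding site.

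The libraries held 33520334 to 74098613 recovered reads and 23044 to 26440 detected genes. As a check of the labels, Nat10 reached 39.3 to 50.1 CPM (read counts scaled to a common library total by TMM, which aligns the bulk of genes between libraries) in WT pools but only 5.72 to 6.32 CPM in Nat10 cKO pools. Its log2 difference was -2.67 (SE 0.129, limma adjusted p = 4.29e-08). Oocyte marker genes were abundant in every library, led by Gdf9 (5664 CPM on average) and Padi6 (5155 CPM). Their 14 levels summed to 28786 to 30472 CPM in WT but 35591 to 41774 CPM in Nat10 cKO pools, where 9 of the 14 rose and Oosp1, Ooep and Zar1 fell by limma. The summed level of granulosa cell markers was 117 to 129 CPM over WT pools, against 116 to 130 CPM over Nat10 cKO pools. Of 17 granulosa markers, 8 stayed under 1 CPM in every library, Foxl2 and Amh among them, and Cyp19a1 and Nr5a2 made up most of the sum. Without Cyp19a1, which fell by 0.32 (limma adjusted p = 0.0488, a call lost in most alternatives), the sum was 66.9 to 71.7 CPM in WT but 74.9 to 88.8 CPM in Nat10 cKO pools. Inha and Inhba were called by limma. Inha rose 2.75-fold in mean CPM, with 4.84, 2.48 and 9.21 CPM in Nat10 cKO replicates 1, 2 and 3, and Inhba fell. Of the theca, stroma and endothelium markers 7 of 10, and of the blood and immune markers 7 of 9, stayed under 1 CPM in every library, with Col3a1 at 0 reads. The first of these sums was 56.7 to 59.0 CPM in WT pools, against 71.1 to 73.9 CPM in Nat10 cKO pools, led by Pecam1 and then Tek. Without Pecam1, which rose, it was 16.0 to 19.0 CPM in WT pools and from 11.6 CPM up into that range in Nat10 cKO pools. Kdr (from 2.66 to 0.472 CPM on average, limma adjusted p = 0.000262) and Cyp17a1 (from 0.339 to 0.0868 CPM on average, limma adjusted p = 0.0390) fell. Cyp17a1 had only 2 to 16 reads per library. It did not pass on the scale that the authors deposited (limma adjusted p = 0.354) or by DESeq2 (adjusted p = 0.0553). The second was 44.2 to 50.4 CPM in WT pools, against 35.1 to 35.8 CPM in Nat10 cKO pools, mostly from C1qb, with Cd68 next. Their part in the differences below was not tested.

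Of the 9 regulators, 1 rose and 2 fell in Nat10 cKO oocytes, so that 3 of 9 were called, against 35.0% of all tested genes. Msi2 fell most, Mex3b fell by a smaller amount and Dazl rose. The other 6 did not pass the test. All 9 passed the filter on low counts and were tested with limma, with Benjamini-Hochberg adjustment over 18353 genes and a threshold of 0.05. Every log2 difference given with limma is of the scaled level plus 1, which shrinks it at low levels. Over all tested genes, 17.4% rose and 17.6% fell, so the share of regulators called is close to the background. The median log2 difference of the 9 was 0.043, against 0.00096 over all tested genes. The groups did not overlap for 5 of the 9 regulators, against 48.3% of all tested genes. In these pools, a lower share of cells of a type and less RNA per cell cannot be told apart.

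**Figure D1:**
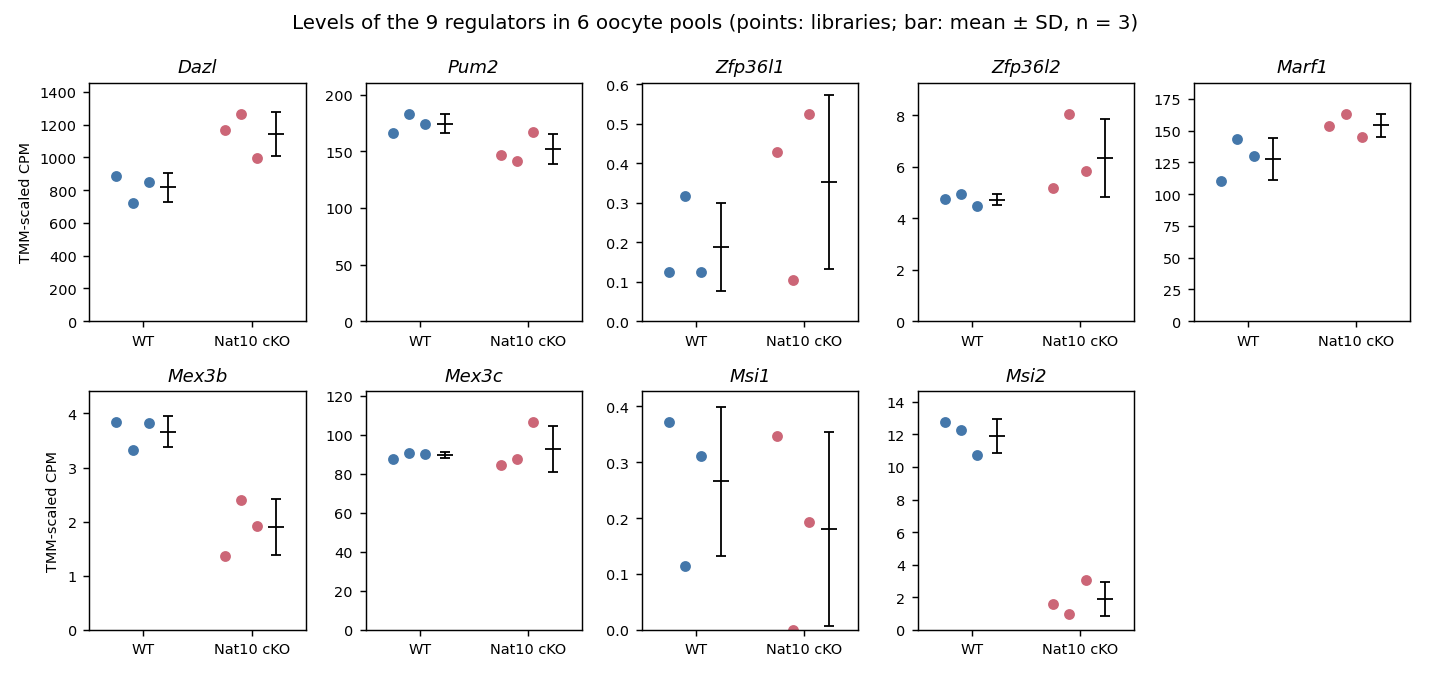
TMM-scaled CPM (linear axes from 0) of each of the 9 regulators in 3 WT and 3 Nat10 cKO libraries; points are libraries, and the bar beside them is the mean ± SD. All 3 Nat10 cKO points lie below all 3 WT points for Msi2 and Mex3b, and above them for Dazl, Marf1 and Zfp36l2.

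Compared per kilobase of exon, the 9 mRNAs covered a wide range of levels in WT oocytes. Dazl led, at 214 CPM per kilobase, with a range of 188 to 233 over the 3 libraries. Pum2 and Mex3c came next, both at 24.0 CPM per kilobase, and their ranges overlapped. Marf1 followed, at 12.6 CPM per kilobase. Zfp36l2, Msi2 and Mex3b stood at 1.34, 1.14 and 1.09 CPM per kilobase, where the ranges of Msi2 and Mex3b overlapped and that of Zfp36l2 lay above both. Zfp36l1 and Msi1 were lowest, at 0.0628 and 0.0458 CPM per kilobase, with overlapping ranges. In Nat10 cKO oocytes the order was the same at the top, except that Pum2 and Mex3c, whose ranges again overlapped, changed places. Msi2 and Mex3b also changed places, at 0.182 and 0.564 CPM per kilobase, and their ranges no longer overlapped. The range of Msi2 there overlapped that of Zfp36l1, at 0.118 CPM per kilobase. Among all tested genes ranked by WT CPM, Dazl was number 137.

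Musashi proteins are RNA-binding regulators of translation that carry a pair of RNA recognition motifs and are known from stem cells and from oocyte maturation. Msi2 (chromosome 11, 88339382 to 88718513, minus strand, GRCm38) measured 12.7, 12.3 and 10.7 CPM in WT pools, against 1.62, 0.987 and 3.07 CPM in Nat10 cKO pools. Every Nat10 cKO library lay far below every WT library, and Nat10 cKO replicate 3 was the highest of its group. The mean was 6.29-fold lower in Nat10 cKO oocytes (11.9 ± 1.06 against 1.89 ± 1.07 CPM, SD, n = 3). Adding 1 to the CPM shrinks differences at low levels. On this log2(CPM + 1) scale Msi2 fell by 2.22 (SE 0.220, limma adjusted p = 2.68e-05). Of the 18353 tested genes, 16, or 0.0872%, were called with a fall at least as large on that scale, Msi2 and Nat10 included. Genes with low WT levels cannot fall that far on it, so the share among genes able to do so is larger. edgeR on the recovered reads gave a log2 change of -2.63 (adjusted p = 0.000139).

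The reads behind these values numbered 412, 427 and 689 in WT and 121, 47 and 222 in Nat10 cKO libraries. The fall was thus present in raw reads, although 2 of the 3 Nat10 cKO libraries were the deepest of all. It also held on the scale that the authors deposited, on which 1 factor multiplies all reads of a library. ERCC spike-in RNA had been added for calibration, but how the factors were made is not stated in the sources used here. With that scale divided by the mean deposited total of the 6 libraries, in the manner of CPM, Msi2 stood at 7.73, 11.1 and 12.2 units in WT pools, against 2.09, 0.800 and 3.88 units in Nat10 cKO pools. On that scale the fall was 1.89, with an adjusted p of 2.28e-05 by limma. Msi2 passed the threshold in all 16 alternative analyses, with log2 changes between -2.73 and -1.30, the smallest with a pseudocount of 5. Msi1, the other Musashi gene, had at most 26 reads in any library. Its levels were 0.371, 0.115 and 0.311 CPM in WT pools, against 0.348, 0 and 0.194 CPM in Nat10 cKO pools, and the groups overlapped. The count of 0 in Nat10 cKO replicate 2 allows up to 0.0630 CPM, at 3 reads. The log2 difference of Msi1 was -0.11 (SE 0.127, limma adjusted p = 0.551), which is within the spread of the libraries.

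DAZL is a germ-cell protein that binds U-rich letters and activates translation of its targets, many of them during meiotic maturation. Dazl (chromosome 17, 50279395 to 50293636, minus strand) measured 889, 719 and 848 CPM in WT pools, against 1165, 1267 and 998 CPM in Nat10 cKO pools. All 3 Nat10 cKO libraries were higher than all 3 WT libraries. The mean rose 1.40-fold, from 819 ± 88.8 to 1143 ± 136 CPM, with a log2 change of 0.48 (SE 0.105, limma adjusted p = 0.00359, n = 3 per group). On the deposited scale Dazl stood at 540, 648 and 967 units in WT and 1505, 1027 and 1262 units in Nat10 cKO libraries. The groups did not overlap there either, but the spread was wider, and the difference of 0.84 (SE 0.389) did not pass limma (adjusted p = 0.191). When each library's shares of reads were multiplied by its deposited factor (the share scale), the difference was 0.26 (limma adjusted p = 0.294). Over all tested genes the median moved by 0.24 on the deposited scale and by -0.15 on the share scale. Relative to those medians, Dazl was higher by 0.60 and 0.41. Boll, the DAZL paralog known mainly from spermatogenesis, had 10 to 12 reads per WT library and 38 to 82 per Nat10 cKO library. Its mean rose 3.14-fold, from 0.281 ± 0.0923 to 0.885 ± 0.219 CPM. On the log2(CPM + 1) scale, which shrinks differences at such low levels, the rise was 0.55 (SE 0.128, limma adjusted p = 0.00505). edgeR on the recovered reads gave a log2 change of 1.70 (adjusted p = 0.00799). Boll also rose on the deposited scale, by 0.68 (limma adjusted p = 0.00590).

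Pumilio proteins repress translation and stability of mRNAs that hold their letters. Pum2 (chromosome 12, 8674134 to 8752581, plus strand) measured 166, 183 and 174 CPM in WT pools, against 147, 142 and 167 CPM in Nat10 cKO pools. Nat10 cKO replicate 3 reached the WT range. The log2 difference of -0.20 (SE 0.0914) did not pass limma (adjusted p = 0.105), and without that library it did, at -0.27 (limma adjusted p = 0.0337). On the deposited scale it was 0.16, which is -0.083 relative to the median of all genes, and on the share scale -0.27 relative to that median.

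ZFP36 family proteins bind AU-rich letters through a pair of zinc fingers and bring in a deadenylase, and ZFP36L2 is known to be needed in oocytes for female fertility. Zfp36l2 (chromosome 17, 84183931 to 84187947, minus strand) measured 4.76, 4.94 and 4.49 CPM in WT pools, against 5.19, 8.07 and 5.82 CPM in Nat10 cKO pools. The groups did not overlap, yet the difference of 0.34 (SE 0.167) did not pass limma (adjusted p = 0.128), and Nat10 cKO replicate 2 stood apart from the other two. Zfp36l1 (chromosome 12, 80107754 to 80113013, minus strand) had between 4 and 38 reads per library. Its levels were 0.124, 0.316 and 0.124 CPM in WT pools, against 0.428, 0.105 and 0.525 CPM in Nat10 cKO pools, and the groups overlapped (0.18, limma adjusted p = 0.316). Zfp36, the founding member of the family, averaged 4.99 ± 0.422 CPM in WT pools, against 3.65 ± 0.234 CPM in Nat10 cKO pools (-0.36, limma adjusted p = 0.0716). Zfp36l3 had 0 reads in 5 of the 6 libraries and was not tested. Exons of Zfp36l1 overlap 1672 bases of Gm26669 and those of Zfp36l2 105 bases of another gene on the opposite strand, so their reads may include those of the partner.

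MARF1 is an oocyte protein with a ribonuclease domain that is required for meiosis and for silencing of mobile elements in oocytes. Marf1 (chromosome 16, 14109173 to 14163351, minus strand) measured 111, 143 and 130 CPM in WT pools, against 154, 163 and 145 CPM in Nat10 cKO pools. The groups did not overlap, although WT replicate 2 and Nat10 cKO replicate 3 nearly met. The difference of 0.27 (SE 0.103) missed the threshold (limma adjusted p = 0.0547). It passed in 4 of 16 alternatives, among them without WT replicate 2 (0.37, limma adjusted p = 0.0123) and without Nat10 cKO replicate 3 (0.32, limma adjusted p = 0.0325). On the share scale it was 0.057 (limma adjusted p = 0.890), which is 0.21 relative to the median of all genes there. On the deposited scale it was 0.63 (limma adjusted p = 0.376), which is 0.39 relative to the median on that scale. Exons of Marf1 overlap 77 bases of Nde1 on the opposite strand.

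MEX3 proteins carry KH domains that bind RNA and a RING finger of the kind found in ubiquitin ligases. Mex3b (chromosome 7, 82867333 to 82871515, plus strand) measured 3.83, 3.33 and 3.82 CPM in WT pools, against 1.36, 2.40 and 1.92 CPM in Nat10 cKO pools. Every Nat10 cKO library lay below every WT library. The mean was 1.93-fold lower (3.66 ± 0.287 against 1.89 ± 0.516 CPM), and on the log2(CPM + 1) scale Mex3b fell by 0.70 (SE 0.169, limma adjusted p = 0.00641, n = 3 per group). The call was lost on the deposited scale (-0.45, limma adjusted p = 0.440), where the difference relative to the median of all genes was -0.69, and without Nat10 cKO replicate 1 (-0.56, limma adjusted p = 0.0511). Mex3c (chromosome 18, 73573044 to 73592575, plus strand) measured 87.8, 90.8 and 90.5 CPM in WT pools, against 84.7, 87.6 and 106 CPM in Nat10 cKO pools, with overlapping groups (0.04, SE 0.101, limma adjusted p = 0.771). Of the paralogs outside the set, Mex3a fell from 3.39 ± 0.547 to 1.98 ± 0.238 CPM (-0.55, limma adjusted p = 0.0160). That call was lost on the deposited scale (adjusted p = 0.631) and without WT replicate 2 (0.0516), Nat10 cKO replicate 1 (0.0794) or Nat10 cKO replicate 2 (0.0506), all by limma. Mex3d averaged 2.26 ± 0.950 and 1.22 ± 0.450 CPM (-0.53, limma adjusted p = 0.0829), and WT replicate 1 lay within the Nat10 cKO range. On the share scale Mex3d passed (-0.67, limma adjusted p = 0.0139). In the main analysis, of the 5 tested paralogs of all families, Boll rose, Mex3a fell and 3 did not pass, where 35.0% of all tested genes were called.

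**Figure D2:**
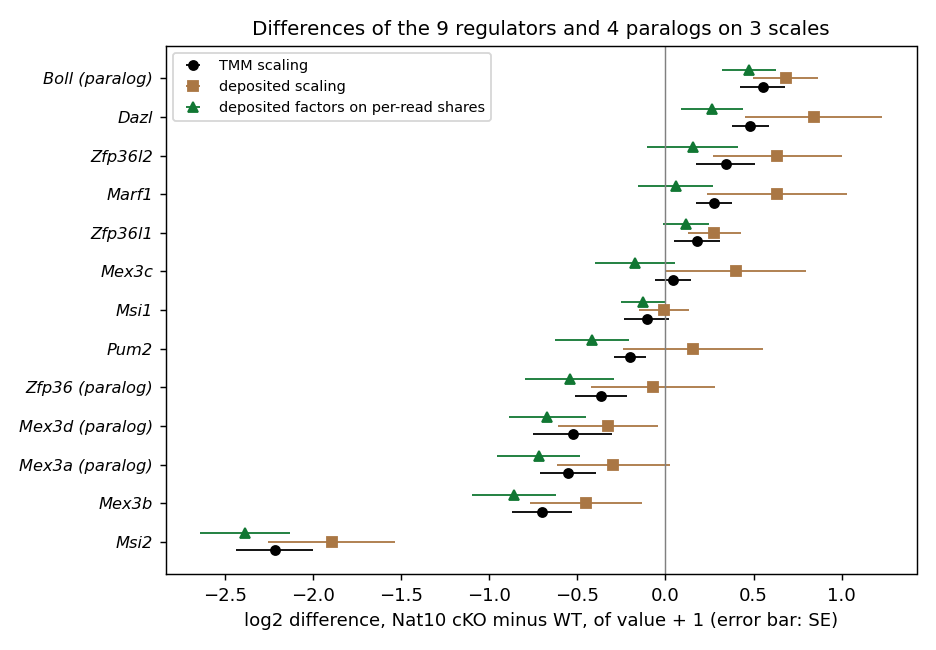
Log2 differences, Nat10 cKO minus WT, of the 9 regulators and 4 tested paralogs, with the SE, on 3 scales: TMM-scaled CPM, the deposited scale, and the deposited factors on per-read shares. Msi2 lies between -2.39 and -1.89 on all 3 scales, and all 13 genes lie further right on the deposited scale, where the median of all tested genes is 0.24, than on the TMM scale.

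Ratios between related genes within a library do not depend on any factor of that library, and 4 pairs were compared, 3 of which are given here. The log2 ratio of Mex3c to Mex3b reads was 4.51, 4.76 and 4.56 in WT and 5.95, 5.19 and 5.79 in Nat10 cKO libraries. All 3 Nat10 cKO ratios were higher, by 1.03 on average. The exact permutation test gave two-sided p = 0.1, the smallest that 3 against 3 allows, and 0.2 after adjustment over the 4 pairs, so this pair cannot pass 0.05. The ratio of Msi2 to Msi1 differed by -1.33 (exact permutation p = 0.5) and that of Zfp36l2 to Zfp36l1 by -0.31 (exact permutation p = 0.8). In both of these the rarer gene had few reads and the libraries of a group were far apart. For Msi2 and Msi1 the ratio was 6.57 in Nat10 cKO replicate 2, where Msi1 had 0 reads, and the difference was -2.49 without that library. Leaving out WT replicate 2 gave -0.82, and leaving out Nat10 cKO replicate 1 gave -0.31. For Zfp36l2 and Zfp36l1 the sign changed without Nat10 cKO replicate 1 (0.091) or Nat10 cKO replicate 3 (0.15).

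**Figure D3:**
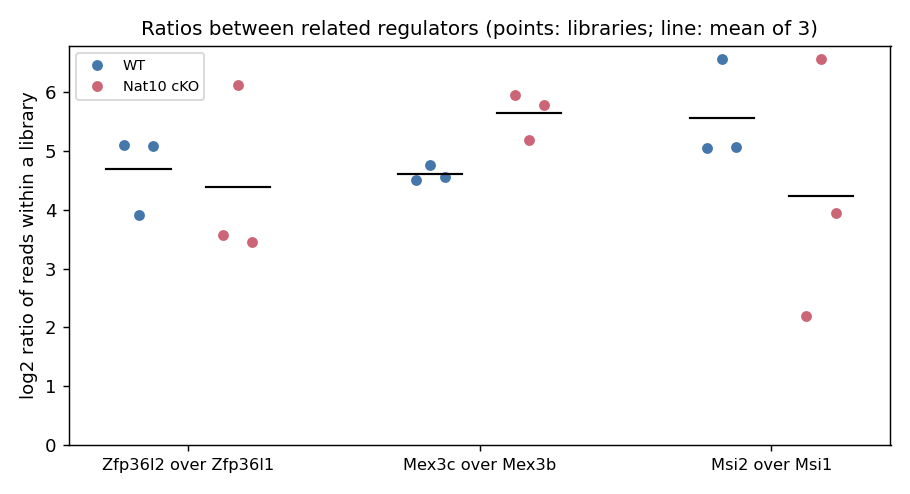
Log2 ratio of reads (plus 0.5) of 3 pairs of related regulators in each library; points are libraries and lines the mean of 3. The genotypes do not overlap for Mex3c over Mex3b, at most 4.76 in WT and at least 5.19 in Nat10 cKO, and they overlap for the other two pairs.

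mRNAs reported elsewhere as targets of these proteins or their families were listed as well. Their values are mRNA levels, and translation was not measured. A link between regulator and target levels was not tested. Of 10 listed, 9 were tested, 5 rose and 1 fell, against 17.4% and 17.6% of all genes. Their median log2 difference was 0.25. The list was chosen with earlier results of these data known, so its counts are a description only. Of the 14 oocyte markers, 9 rose as well. All 4 listed DAZL targets rose. Ddx4, the germ-cell RNA helicase known as VASA, measured 52.5, 89.3 and 73.5 CPM in WT pools, against 178, 214 and 132 CPM in Nat10 cKO pools (1.28, SE 0.195, limma adjusted p = 0.000653). Tex19.1, a germ-cell gene that protects against mobile elements, measured 146, 175 and 154 CPM in WT pools, against 275, 346 and 256 CPM in Nat10 cKO pools (0.87, SE 0.114, limma adjusted p = 0.000160). Sycp3, of the synaptonemal complex, rose from 9.61, 7.21 and 8.72 CPM in WT to 18.1, 13.3 and 13.6 CPM in Nat10 cKO pools (0.74, limma adjusted p = 0.00284). Tpx2, a spindle assembly factor, rose from 183 ± 8.56 to 217 ± 8.01 CPM (0.25, limma adjusted p = 0.0340). In each of the 4, all Nat10 cKO libraries were above all WT libraries.

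On the deposited scale, Ddx4 (1.63, limma adjusted p = 0.00176) and Tex19.1 (1.23, limma adjusted p = 0.0303) passed, while Sycp3 (1.07, limma adjusted p = 0.0686) and Tpx2 (0.61, limma adjusted p = 0.398) did not. Sycp3 did not pass on the share scale either (0.55, limma adjusted p = 0.126). The call of Tpx2 was also lost on the share scale (adjusted p = 0.942), with no filter (0.0592), under a replicate block (0.0637), and without WT replicate 3 (0.123), Nat10 cKO replicate 1 (0.112) or Nat10 cKO replicate 2 (0.0975), all by limma. Of these 4 mRNAs, Sycp3 holds 3 overlapping matches of the DAZL letters and Ddx4 holds 1, as printed above. Tex19.1 and Tpx2 hold 0 in the transcripts searched. Among genes with a 3' UTR of similar length, 11.2% hold the letters for Sycp3 and 22.2% for Ddx4. Exons of Sycp3 overlap 660 bases of Chpt1 on the opposite strand.

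Ppp2cb, a phosphatase catalytic subunit whose mRNA accumulates in oocytes that lack MARF1, measured 0.803, 2.27 and 1.09 CPM in WT pools, against 3.56, 4.08 and 3.72 CPM in Nat10 cKO pools. The WT libraries were all lower, and Ppp2cb rose 2.73-fold in mean CPM. On the log2(CPM + 1) scale it rose by 1.05 (SE 0.203, limma adjusted p = 0.00174). It rose on the deposited scale as well (1.25, limma adjusted p = 0.00240). Of the reported Pumilio targets, Cdkn1b passed and Ccnb1 did not, and a difference between them was not tested. Cdkn1b, a cell cycle inhibitor, fell from 50.4 ± 5.70 to 31.8 ± 4.73 CPM (-0.65, limma adjusted p = 0.00162), a call lost on the deposited scale (-0.30, limma adjusted p = 0.710). Relative to the median of all genes there, the difference was -0.54. On the share scale the difference of Cdkn1b was -0.87 (limma adjusted p = 0.00426). Ccnb1, the cyclin of maturation-promoting factor, averaged 1530 ± 192 and 1436 ± 229 CPM (-0.10, limma adjusted p = 0.560). The reported Musashi targets Mos, a meiotic kinase, and Numb, a cell fate determinant, did not pass either, with differences of -0.03 and 0.16 (limma adjusted p = 0.832 and 0.257). Vegfa, a reported ZFP36L1 target, was too low to test.

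**Figure D4:**
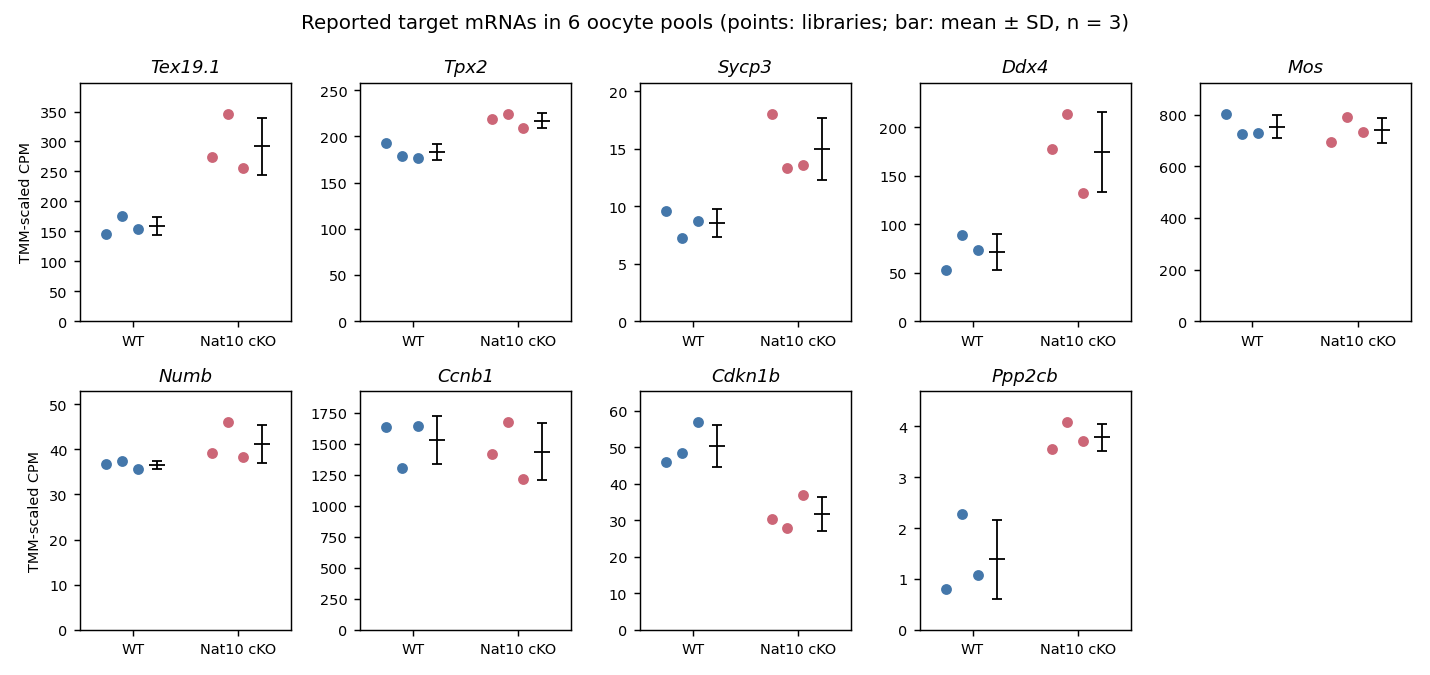
TMM-scaled CPM (linear axes from 0) of the 9 tested target mRNAs in 3 WT and 3 Nat10 cKO libraries, with the mean ± SD beside the points. Tex19.1, Tpx2, Sycp3, Ddx4, Numb and Ppp2cb are higher and Cdkn1b is lower in every Nat10 cKO library, whereas the groups overlap for Mos and Ccnb1.

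Sequence-specific regulators of mRNA from families outside the set were listed for comparison. Of 40 listed, 39 were tested, 10 fell and 3 rose, and their median log2 difference was -0.11, against 0.00096 over all genes. Over all tested genes 17.6% fell and 17.4% rose. This list too was chosen with earlier results of these data known, so its counts are a description only. Samd4, the mammalian Smaug, fell from 3.11 ± 0.269 to 1.09 ± 0.329 CPM (-0.99, limma adjusted p = 0.000617). Nanos2, whose family acts together with Pumilio, measured 52.8, 47.3 and 48.8 CPM in WT pools, against 25.2, 21.9 and 29.7 CPM in Nat10 cKO pools (-0.94, SE 0.121, limma adjusted p = 0.000144). Larp4, which binds poly(A), fell from 152 ± 11.5 to 83.0 ± 12.4 CPM (-0.88, limma adjusted p = 0.000129). Rc3h1 and Rc3h2 encode the roquins, which destroy mRNAs with stem-loops, and went opposite ways: Rc3h1 fell by 0.75 (limma adjusted p = 0.000548) and Rc3h2 rose by 0.66 (limma adjusted p = 0.00746). Fmr1, the gene of the fragile X protein, rose from a range of 16.5 to 26.4 CPM to one of 36.9 to 38.6 CPM (0.78, limma adjusted p = 0.00144). Exons of Nanos2, Samd4 and Larp4 overlap antisense genes by 766, 842 and 204 bases. Without WT replicate 2, 5 rose and 10 fell, and the share of all genes called there was not taken.

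How many of this list were called depended on the scale. On the deposited scale 0 of the 39 rose and 0 fell by limma, against 6.58% and 1.39% of all genes, and the median of the list, 0.25, was close to that of all genes, 0.24. On the share scale 0 rose and 9 fell, against 5.60% and 16.5% of all genes, and the median of the list was -0.32, against -0.15. edgeR on the recovered reads gave 3 rises and 10 falls. Of the 9 set members, 0 rose and 1 fell as deposited, where 7.97% of all genes were called in either direction. On the share scale 0 rose and 2 fell, where 22.1% were called. By edgeR 1 rose and 2 fell, where 33.8% of all genes were called, 16.6% up and 17.2% down.

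**Figure D5:**
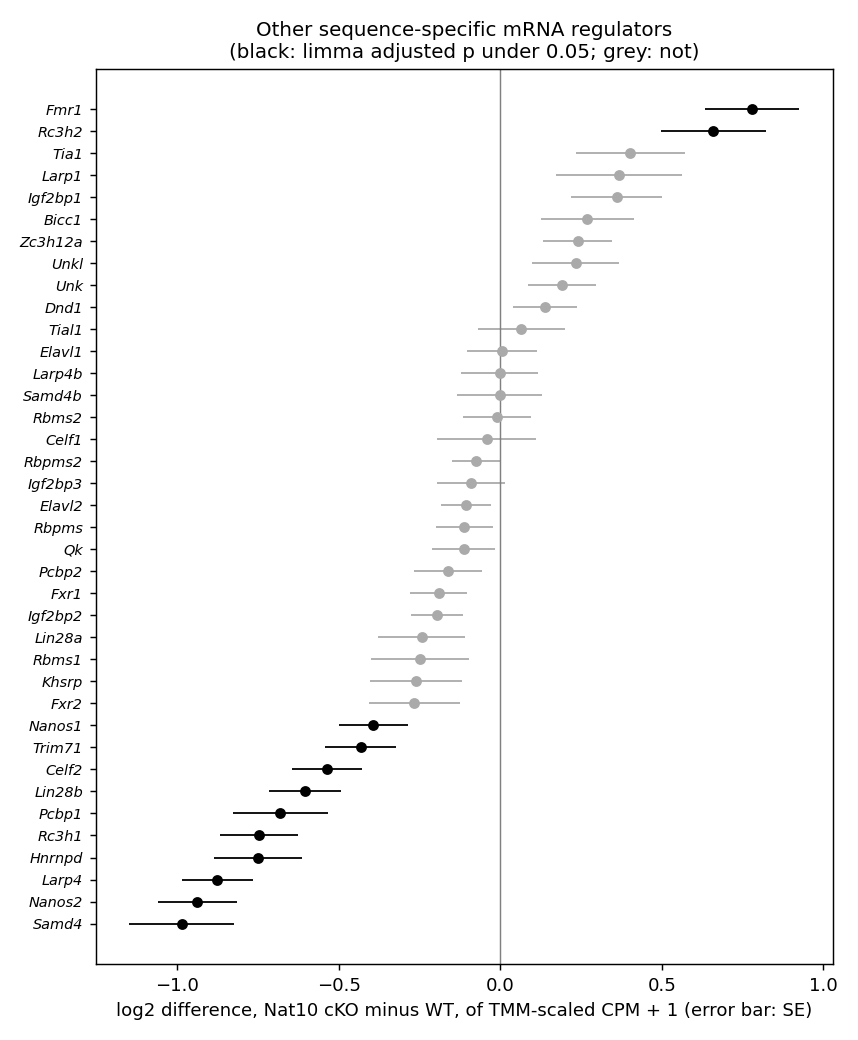
Log2 difference, Nat10 cKO minus WT, of TMM-scaled CPM + 1 for 38 of the 39 tested other regulators, with the SE; black points passed limma at an adjusted p of 0.05 and grey points did not. The 10 falls range from Nanos1 at -0.39 to Samd4 at -0.99, and the rises drawn are Rc3h2 at 0.66 and Fmr1 at 0.78.

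Over the 6 libraries, the genes most like the most abundant members were found by Pearson correlation of log2(CPM + 1) among 7914 named genes of at least 10 CPM. For Dazl these were Ift80 and Stk31 (r = 0.997 and 0.996), for Pum2 Zhx3 and Zc3h4 (0.998 and 0.997), and for Marf1 Stxbp3 and Trim35 (0.998 and 0.998). The 6 libraries form 2 genotypes, and 837, 704 and 573 of the genes correlated with Dazl, Pum2 and Marf1 above 0.9, so these are descriptions only.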

How the data were processed

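The submitters' processing notes list mm10, featureCounts, STAR 2.7.10a and Trim Galore 0.6.7. The annotation, strand setting and parameters behind the counts are not given in the sources used. In the deposited table, WT replicate 1 holds whole counts of reads per gene. The other 5 columns hold a deposited signal, reads multiplied by 1 factor per library, and dividing by that factor returned whole numbers for 100% of values, with a tolerance of 0.001. Oligo-dT primed the cDNA, so a change in poly(A) tail length and a change in mRNA amount cannot be told apart.

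Recovered reads were scaled by TMM (edgeR 4.0.16) to CPM. limma 3.58.1 (trended, robust) tested log2(CPM + 1) of 18353 genes kept by filterByExpr (minimum count 10), two-sided, with Benjamini-Hochberg adjustment. Alternatives were other factors, the deposited scale, pseudocounts, no filter, edgeR, DESeq2 1.42.0, a replicate block, and each library left out. The deposited scale was not divided by library totals. Fits were tested on simulated data. R 4.3.3 and Python 3.11.15 were used. Positions, exon lengths and transcripts came from GENCODE M21 on GRCm38, the assembly of mm10, and 53180 of 55291 symbols matched 1 gene. Qki was found under its symbol Qk.

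The members and lists were chosen with earlier results of these data known. Named genes were Nat10, all members, paralogs and reported targets, up to 4 other regulators called in each direction with the smallest p, the 2 genes most like each of the 3 most abundant members, and the 2 most abundant genes of each marker list. Nanos1, named as an end of a range, and the markers Oosp1, Ooep, Zar1, Inha, Inhba, Kdr and Cyp17a1 were chosen after their values were seen. 2 genes that this rule names, and the ratio that uses 1 of them, enter the counts but are not reported here.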

Additional observations from a re-analysis of the deposited data

How the results depend on the processing

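Msi2 passed the threshold in all 16 alternatives, Dazl and Mex3b in 14 each, Marf1 in 4 and Pum2 in 1; Mex3c, Msi1, Zfp36l1 and Zfp36l2 passed in 0, with smallest adjusted p-values of 0.528, 0.278, 0.0784 and 0.0938. The members that rose, 1 in the main analysis, numbered 0 on the deposited scale and with the deposited factors on per-read shares, and 2 with library sizes only and with median-of-ratios factors, where Marf1 was added. The members that fell, 2 in the main analysis, numbered 1 on the deposited scale. On that scale 0 other regulators rose and 0 fell, 1 paralog and 3 reported targets were called, and Cyp19a1 stood at 0.031 instead of -0.32, which is -0.21 relative to the median of all genes there, 0.24. On per-read shares 0 other regulators rose. Leaving out 1 library at a time gave 1 to 2 members that rose and 1 to 3 that fell, 2 to 5 other regulators that rose and 9 to 13 that fell, 1 to 3 paralogs called and 5 to 6 targets called; Marf1 was added when either WT replicate 2 or Nat10 cKO replicate 3 was left out, and Pum2 with the latter. Causes were not tested. For library sizes only and median-of-ratios factors, the share of all tested genes called was not taken. Nor was it taken for a replicate block or with 1 library left out. The counts in those settings therefore have no background beside them. With the replicate number as a block, 1 member rose and 2 fell, as in the main analysis. The labels do not say whether same-numbered libraries share more than the number. Their correlations of deviations were 0.079, 0.075 and -0.12, against -0.23 to 0.24 for differently numbered libraries. So few libraries cannot decide whether the numbers mark a pairing. The block added Mex3d (adjusted p = 0.0369) and lost Tpx2 (0.0637) and Cyp19a1 (0.0534). Zfp36l1 and Msi1 had at most 38 reads per library, but Boll was called with 10 to 82, and the part of depth was not tested.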

Other observations

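The factors of the deposited columns are ratios of 69 to whole numbers. For WT replicates 1, 2 and 3 the whole numbers are 69, 50 and 73, and for Nat10 cKO replicates 1, 2 and 3 they are 75, 76 and 74. What these numbers count is not stated in the sources used. The factor of WT replicate 2, at 1.38, is the only one of the 6 above 1.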
